A study of Mus musculus with 16 samples.

Results

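The genes described here are 10 immediate early genes of the mouse: Fos, Fosb, Jun, Junb, Egr1, Egr2, Nr4a1, Klf4, Ier2 and Ier3. They were picked by name, as the rows of the count table whose symbol equals 1 of these. The 10 were proposed with earlier results of these data known. They are 10 of the table's 56980 rows, and all 10 were among the 15385 genes that passed the filter on low counts. In macrophages without the progranulin gene Grn that carried the control edit, Fos, Fosb, Nr4a1 and Klf4 were lower and Jun and Ier3 higher than in WT macrophages with the same edit. In cells without Grn, an edit against Mitf, Tfe3 and Tfeb raised Fos, Fosb, Nr4a1 and Klf4 and lowered Jun. Both comparisons use the same libraries of control-edited cells without Grn, so opposite changes in them are not independent results. In WT cells the same edit raised Ier3 and Klf4 and lowered Nr4a1, but of these only the Ier3 call was kept in every alternative fit described below.

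Immediate early genes are transcribed within minutes of a growth factor, stress or microbial signal, without the need for new protein, and their mRNAs are usually short-lived. Kinases of the MAP kinase and protein kinase A pathways switch them on through factors already bound at their promoters, such as serum response factor (SRF) with its ternary complex partners and CREB. Many of the products are transcription factors that pass the signal on to later genes, and in macrophages they take part in the responses to the growth factor M-CSF and to microbial products.

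The cells were bone-marrow-derived macrophages, taken from 12-week-old mice that the labels call male, of a C57Bl/6J background with a knock-in at the transferrin receptor locus (hTfR mu/hu) that all groups carried. WT mice were Grn+/+ and GrnKO mice Grn-/-. Thawed cells were grown in 50 ng/mL M-CSF and transfected as pools, without cloning, with Cas9 protein and guides against Mitf, Tfe3 and Tfeb together (TKO) or against the Rosa26 locus (the control edit), and RNA was taken 10 days later. No stimulus other than the medium with M-CSF is named, so all values are levels without a named stimulus. Whether the cultures were at a steady state when RNA was taken was not tested. Crossing genotype with edit gave 4 groups of 4 samples, each from its own animal by the series design, called WT Rosa26 and WT TKO, and GrnKO Rosa26 with GrnKO TKO, in 4 batches that each held 1 sample of every group. A batch is a collection batch, as the series design describes it, and replicates below carry the batch number.

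Polyadenylated RNA was read as 3′ tags, so each transcript gives a tag from its 3′ end whatever its length. Levels are counts scaled by the effective library size (CPM), changes are log2 fold changes ± SE, and a call is an adjusted p under 0.05 over all genes tested by edgeR's quasi-likelihood test with Benjamini-Hochberg adjustment. WT library totals were 7069445 to 22469333 counts with the Rosa26 edit, the lowest being replicate 1, and 16246549 to 21463565 with the TKO edit. GrnKO totals were 28431505 to 32969401 and 18387499 to 28511718 counts. Depth therefore moved with genotype in the Rosa26 cells. It also moved with the edit in the GrnKO cells, where the Rosa26 library was deeper than the TKO library in every batch. The lowest count of any member in any library was 49, for Fosb in WT Rosa26 replicate 1. Grn stood at 2522 to 3693 CPM in the WT libraries and at 40.7 to 56.1 CPM in the GrnKO libraries, and mitochondrial transcripts held 1.27% to 1.82% of the counts. A 3′ tag need not show a small deletion at a guide's cut, so tags of the edited genes do not check the TKO label. With the edit Tfe3 fell in WT cells (-0.90 ± 0.17, edgeR adjusted p = 0.0108) and in GrnKO cells (-0.51 ± 0.17, 0.0351). Mitf had -0.25 ± 0.09 in WT cells (edgeR adjusted p = 0.172) and rose in GrnKO cells (0.25 ± 0.09, 0.049), and Tfeb had -0.19 ± 0.12 and -0.25 ± 0.12 (0.474 and 0.133).

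Some libraries went against their labels or stood apart. Xist, an RNA made from the inactive X, was at 169 to 269 CPM with the Y-linked Ddx3y under 2 CPM in 10 libraries, although the labels call the mice male. Ddx3y was at 97.3 to 122 CPM in both batch 3 libraries from WT mice and both batch 4 libraries from GrnKO mice. Both transcripts were present in the batch 2 libraries from WT mice, where Ddx3y was at 31.7 and 34.2 CPM. These transcripts thus differed between the genotypes within batches 2, 3 and 4 and not between the edits of 1 genotype and batch. With the Ddx3y level as a term, the same 6 members were called with the loss of Grn in Rosa26 cells as without it. The 10 libraries with little Ddx3y hold both genotypes in batch 1 only. With a batch term they compare genotypes through 1 library per group, so only sizes of change are given for them below. All 12 macrophage markers were expressed, with summed levels of 9296 to 11498 CPM (WT Rosa26), 11142 to 11525 CPM for the WT TKO group, 6842 to 7359 CPM for the GrnKO Rosa26 group and 8770 to 9653 CPM for the GrnKO TKO group. Lyz2 was the most abundant of the 12, so differences between these sums need not hold for each marker. Summed markers of neutrophils, lymphocytes, stromal cells, mast cells and dendritic cells were at most 14.6, 1.54, 6.71, 0.354 and 2.92 CPM in any library. Summed endothelial markers were at 48.8 to 56.2 CPM in GrnKO Rosa26 and at 22 to 35.7 CPM in the other groups, through Kdr, Pecam1 and Vwf, while Cdh5, Tek and Emcn were under 1 CPM. The erythroid and megakaryocyte list was nearly all Pf4, with sums of 385 to 525 CPM for WT Rosa26, 820 to 945 CPM for WT TKO, 211 to 269 CPM for GrnKO Rosa26 and 527 to 695 CPM for GrnKO TKO, while its other 6 genes were under 1 CPM and Hba-a1 was at 0. The part of depth, of the X and Y transcripts and of these marker sums in the results below was not tested, beyond the fits with a Ddx3y term or without single libraries.

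Promoter windows of 250 bases before and 50 after the start, from RefSeq on GRCm38.p6, were at hand for 8 of the 10 members. They are shown for the 6 that differed between GrnKO and WT cells with the control edit, since letters near the start are what a reader can set beside the changes. Positions are counted from the start, and capitals mark TGACG on either strand, the core of a binding site of CREB and related factors. The windows are chr12:85473640-85473939 on the plus strand for Fos, chr7:19309996-19310295 on the minus strand for Fosb, chr4:95052173-95052472 on the minus strand for Jun, chr17:35821463-35821762 on the plus strand for Ier3, chr15:101266596-101266895 on the plus strand for Nr4a1 and chr4:55532426-55532725 on the minus strand for Klf4.
Fos: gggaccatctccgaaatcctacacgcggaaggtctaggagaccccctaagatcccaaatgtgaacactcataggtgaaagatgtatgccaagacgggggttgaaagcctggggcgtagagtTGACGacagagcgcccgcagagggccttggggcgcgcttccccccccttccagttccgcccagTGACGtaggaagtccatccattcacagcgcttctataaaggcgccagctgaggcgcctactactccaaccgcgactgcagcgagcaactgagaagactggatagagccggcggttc
Fosb: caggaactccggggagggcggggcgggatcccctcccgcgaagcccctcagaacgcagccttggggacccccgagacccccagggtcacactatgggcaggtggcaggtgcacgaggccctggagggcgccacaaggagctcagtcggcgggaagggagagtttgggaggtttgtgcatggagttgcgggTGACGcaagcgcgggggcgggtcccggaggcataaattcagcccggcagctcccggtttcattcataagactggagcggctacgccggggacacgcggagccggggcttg
Nr4a1: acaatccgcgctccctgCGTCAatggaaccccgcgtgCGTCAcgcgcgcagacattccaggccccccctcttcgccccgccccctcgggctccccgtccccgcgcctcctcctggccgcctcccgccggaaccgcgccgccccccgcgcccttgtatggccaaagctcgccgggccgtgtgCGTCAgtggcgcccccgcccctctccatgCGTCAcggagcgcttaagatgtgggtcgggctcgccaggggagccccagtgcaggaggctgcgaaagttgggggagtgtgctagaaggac
Klf4: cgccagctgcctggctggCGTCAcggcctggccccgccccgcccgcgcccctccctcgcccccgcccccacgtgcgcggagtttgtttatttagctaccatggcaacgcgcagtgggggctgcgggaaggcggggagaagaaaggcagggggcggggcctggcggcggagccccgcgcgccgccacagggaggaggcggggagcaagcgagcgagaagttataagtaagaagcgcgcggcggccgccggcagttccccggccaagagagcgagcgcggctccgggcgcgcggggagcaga
Jun: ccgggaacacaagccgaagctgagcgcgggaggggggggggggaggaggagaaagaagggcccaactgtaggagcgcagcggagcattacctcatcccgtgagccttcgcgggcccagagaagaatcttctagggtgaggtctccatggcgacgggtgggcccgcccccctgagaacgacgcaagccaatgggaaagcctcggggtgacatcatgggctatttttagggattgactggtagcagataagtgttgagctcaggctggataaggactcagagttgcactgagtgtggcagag
Ier3: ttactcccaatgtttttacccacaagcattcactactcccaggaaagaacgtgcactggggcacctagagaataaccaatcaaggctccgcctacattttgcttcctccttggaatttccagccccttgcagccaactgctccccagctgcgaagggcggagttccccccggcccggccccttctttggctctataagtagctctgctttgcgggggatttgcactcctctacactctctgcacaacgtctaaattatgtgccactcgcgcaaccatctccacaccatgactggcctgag
Read 5′ to 3′, the Fos window holds TGACG at -129 and -66, Fosb at -60, Nr4a1 at -233, -213, -69 and -40 and Klf4 at -232, each given as the match's first base. The Jun and Ier3 windows hold no exact match to these letters. The Jun window does hold tgacatca, which has an A where TGACGTCA has its last G. Near matches were not counted in any window, so a window without a match may still hold a related site. Among all 32851 windows of this length 20.8% hold TGACG, and 6 of the 8 members have it in a window, Junb and Egr2 included. A member counts if any of its windows has a match, so these counts are not in the unit of the share of windows. The longer CREB site TGACGTCA was in 1.79% of all windows and the AP-1 site TGANTCA in 7.81%, and neither was in a member window. A CArG box, the SRF site, was in 1.63% of all windows and in those of 1 member, Egr2, which has 5 listed starts. Sites more than 250 bases before a start lie outside the windows, and Egr1 and Ier2 had no window. The count therefore cannot show that a member lacks an SRF site. CACGTG, the E-box that MiT/TFE factors and many others can bind, was in 7.15% of all windows and in those of Klf4, at -182, and Egr2. The site GCGNGGGCG of EGR factors was in 5.55% of all windows and in those of 3 members, and an NF-kB site in 8.46% and in those of 5. These matches are descriptions of the letters only, and both strands were searched in every case, so that TGACGTCA also counts as TGACG.

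Fos and Fosb encode the FOS partners of the dimer AP-1, which bind DNA only together with a JUN protein. Fos, in batches 1 to 4, was at 200, 178, 180 and 159 CPM in WT Rosa26 and at 214, 149, 183 and 127 CPM in WT TKO. In GrnKO Rosa26 it was at 100, 76.1, 76.9 and 67.8 CPM and in GrnKO TKO at 154, 112, 126 and 106 CPM. Each GrnKO Rosa26 library lay below every library of the other 3 groups, and the other groups overlapped their neighbours in the order WT Rosa26, WT TKO, GrnKO TKO, GrnKO Rosa26. The loss of Grn in Rosa26 cells gave Fos a log2 change of -1.17 ± 0.08 (edgeR adjusted p = 1.91e-09), which is 0.443 of the WT level, and between -1.22 and -1 within each of the 4 batches. In bulk RNA, fewer cells with a transcript and less of it per cell cannot be told apart, nor can slower synthesis and faster decay. The edit in GrnKO cells raised Fos by 0.63 ± 0.08 (edgeR adjusted p = 8.55e-06), by between 0.56 and 0.71 within each of the 4 batches. In WT cells the edit gave -0.12 ± 0.08, with a 95% interval from -0.29 to 0.06 and 2 batches in each direction.

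Fosb, the less abundant of the pair by tags, was at 7.54, 8.21, 6.76 and 6.58 CPM in WT Rosa26 and at 11, 8.08, 8.25 and 5.45 CPM in WT TKO. It was at 4.29, 4.56, 4.54 and 3.54 CPM in GrnKO Rosa26 and at 13.8, 6.6, 7.89 and 6.91 CPM in GrnKO TKO. The GrnKO Rosa26 libraries were again below all others, and the highest value was the GrnKO TKO library of batch 1. Fosb fell with the loss of Grn in Rosa26 cells (-0.80 ± 0.17, edgeR adjusted p = 0.00105) and rose with the edit in GrnKO cells (1.00 ± 0.17, edgeR adjusted p = 0.000228).

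Jun and Junb encode JUN partners of AP-1, which can pair with FOS proteins or with each other. Jun was at 112, 137, 185 and 137 CPM in WT Rosa26 and at 159, 162, 177 and 159 CPM after the TKO edit. Without Grn it was at 218, 243, 220 and 221 CPM with the control edit and at 182, 188, 179 and 167 CPM with the TKO edit. Here GrnKO Rosa26 was the highest group and overlapped no other, so Jun and Fos stood at opposite ends in the same libraries. The loss of Grn in Rosa26 cells raised Jun by 0.67 ± 0.09 (edgeR adjusted p = 1.64e-05), and it fell with the edit in GrnKO cells (-0.34 ± 0.09, edgeR adjusted p = 0.01). That fall lost its call without GrnKO Rosa26 replicate 2 (edgeR adjusted p = 0.0621) or GrnKO TKO replicate 4 (0.0505). Junos, a gene antisense to Jun, was at 1.37 to 3.85 CPM over all libraries and was called in no comparison, and whether the counting used the strand is not given in the sources used here.

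Junb did not follow Jun. It lay between 179 and 232 CPM in all 16 libraries, the groups overlapped throughout, and the ratio of the highest to the lowest group mean was 1.08. The 95% interval of its change between GrnKO Rosa26 and WT Rosa26 ran from -0.19 to 0.18, and with the edit in GrnKO cells from -0.23 to 0.14. Prdx2, which overlaps Junb on the opposite strand, was at 386 to 548 CPM and was not called in any comparison either.

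**Figure D1:**
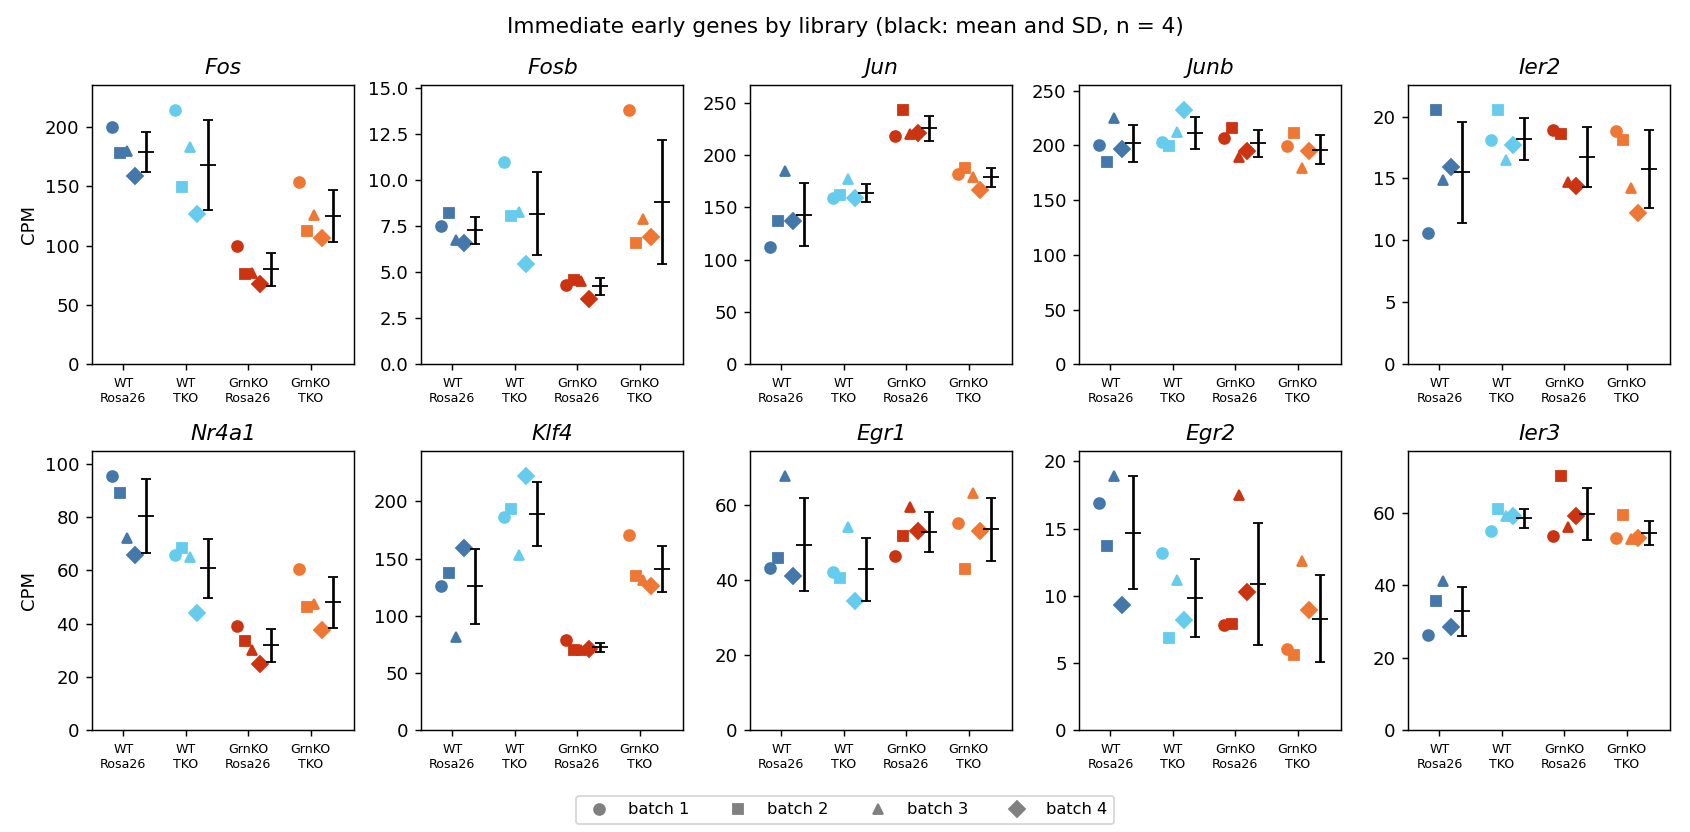
Level of each of the 10 immediate early genes in CPM (vertical axes, from 0) in the 4 libraries of each group, with a symbol per batch and the group mean and SD in black. Fos, Fosb, Nr4a1 and Klf4 are lowest and Jun highest in GrnKO Rosa26, Ier3 is lowest in WT Rosa26, and Junb stays between 179 and 232 CPM.

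Nr4a1 encodes NUR77, an orphan nuclear receptor that restrains inflammatory genes in macrophages. It was at 95.4, 89, 72.1 and 65.8 CPM in WT Rosa26 and at 65.8, 68.4, 64.9 and 44 CPM in WT TKO. In GrnKO Rosa26 it was at 39.3, 33.5, 30.1 and 24.8 CPM, and in GrnKO TKO at 60.7, 46.2, 47.3 and 37.8 CPM. The 4 groups formed a row from WT Rosa26 down to GrnKO Rosa26 in which each overlapped its neighbour, and within every batch the groups had that same order. Nr4a1 had the largest change of the 10 members with the loss of Grn in Rosa26 cells, -1.34 ± 0.09 (edgeR adjusted p = 1.34e-09), which is 0.395 of the WT level. The edit raised it in GrnKO cells (0.59 ± 0.08, edgeR adjusted p = 5.23e-05) and lowered it in WT cells (-0.41 ± 0.08, edgeR adjusted p = 0.00868), in 4 of 4 batches each. That fall in WT cells was not called without WT TKO replicate 4 (edgeR adjusted p = 0.0537), the lowest library of its group. Nor was it called without batch 1, 2 or 4 (edgeR adjusted p = 0.0863, 0.0645 and 0.116).

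Klf4 encodes a zinc finger factor that promotes the monocyte fate and takes part in macrophage polarisation. Its levels were 126, 137, 81.1 and 159 CPM in WT Rosa26 and 186, 193, 153 and 222 CPM in WT TKO. They were 78.6, 70, 69.9 and 70.8 CPM in GrnKO Rosa26 and 171, 135, 131 and 126 CPM in GrnKO TKO. Both edited groups stood above their control group in each batch, and GrnKO Rosa26 lay below all other libraries. Klf4 fell with the loss of Grn in Rosa26 cells (-0.77 ± 0.13, edgeR adjusted p = 0.00018) and rose with the edit in GrnKO cells (0.96 ± 0.13, edgeR adjusted p = 5.94e-05) and in WT cells (0.60 ± 0.13, edgeR adjusted p = 0.0169). The rise in WT cells lost its call without WT Rosa26 replicate 1, WT TKO replicate 2 or WT TKO replicate 4 (edgeR adjusted p = 0.0738, 0.0574 and 0.0807). It also lost the call without batch 1 or batch 2 (edgeR adjusted p = 0.0809 and 0.12). The Pf4 sums given above had the same order of groups.

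Egr1 and Egr2 encode zinc finger factors of the EGR family, which SRF and its partners induce. Egr2 was at 16.9, 13.7, 18.9 and 9.33 CPM in WT Rosa26 and at 13.2, 6.84, 11.2 and 8.17 CPM after the TKO edit. Without Grn it was at 7.86, 7.91, 17.5 and 10.3 CPM with the control edit and at 6.07, 5.61, 12.6 and 8.95 CPM with the TKO edit. All groups overlapped, and batch 3 was the highest or next to the highest in every group. Egr2 was called in 1 comparison, edited GrnKO against control WT cells (-0.83 ± 0.22, edgeR adjusted p = 0.0228), and this call was lost without WT Rosa26 replicate 1 or 2 or GrnKO TKO replicate 1 or 2 (edgeR adjusted p from 0.0688 to 0.0985). When each TKO library was paired with the Rosa26 library of its genotype and batch, Egr2 was also called lower with the edit in WT cells (-0.58 ± 0.13, edgeR adjusted p = 0.0061) and in GrnKO cells (-0.39 ± 0.12, edgeR adjusted p = 0.0151), against -0.56 ± 0.22 and -0.38 ± 0.21 without the pairing (0.202 and 0.187). With the loss of Grn in Rosa26 cells it had -0.45 ± 0.21 (edgeR adjusted p = 0.0987). Egr1 lay between 34.5 and 67.6 CPM, its groups overlapped, and its change with the loss of Grn in Rosa26 cells had a 95% interval from -0.12 to 0.34.

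Ier3 encodes a small protein that guards cells against death and modulates ERK and NF-kB signalling, and Ier2 a nuclear protein with a role in transcription. Ier3 was at 26.2, 35.6, 41 and 28.5 CPM in WT Rosa26 and at 54.8, 60.9, 59 and 59 CPM in WT TKO. It was at 53.6, 70, 55.9 and 59 CPM in GrnKO Rosa26 and at 53, 59.4, 52.6 and 52.9 CPM in GrnKO TKO. WT Rosa26 was thus apart below the other 3 groups, which overlapped one another. Ier3 rose with the loss of Grn in Rosa26 cells (0.86 ± 0.10, edgeR adjusted p = 1.85e-06) and with the edit in WT cells (0.83 ± 0.10, edgeR adjusted p = 5.83e-05), 2 comparisons that share the WT Rosa26 libraries. In GrnKO cells the edit gave -0.13 ± 0.09, with a 95% interval from -0.34 to 0.09. Ier2 lay between 10.6 and 20.5 CPM, and both ends of that range fell within WT Rosa26. It was called in no comparison over all 16 libraries.

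Set side by side over the 10 genes, the comparisons differed in how many members they called. With the loss of Grn in Rosa26 cells 6 of 10 were called, 2 higher and 4 lower, where 44.6% of all genes tested were called in either direction, 23.1% higher and 21.5% lower. The edit in GrnKO cells called 5 of 10, 4 higher and 1 lower, against 32.6% of all genes, 14.8% higher and 17.8% lower. In both, a large part of the transcriptome was called, so these counts are not particular to the members, and the same holds for groups without overlap, 6 of 10 against 34.5% of all genes and 4 of 10 against 31.8%. The edit in WT cells called 3 of 10, 2 higher and 1 lower, where 3.35% of all genes were called, 2.18% higher and 1.16% lower, and the groups of 1 member did not overlap, against 5.62% of all genes. Because the members were chosen with earlier results of these data known, a share above that of all genes does not test the set, here or below. The median change of the 10 was -0.23 with the loss of Grn in Rosa26 cells, -0.01 with the edit in GrnKO cells and 0.09 with the edit in WT cells, beside 0, 0 and -0.01 over all genes.

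**Figure D2:**
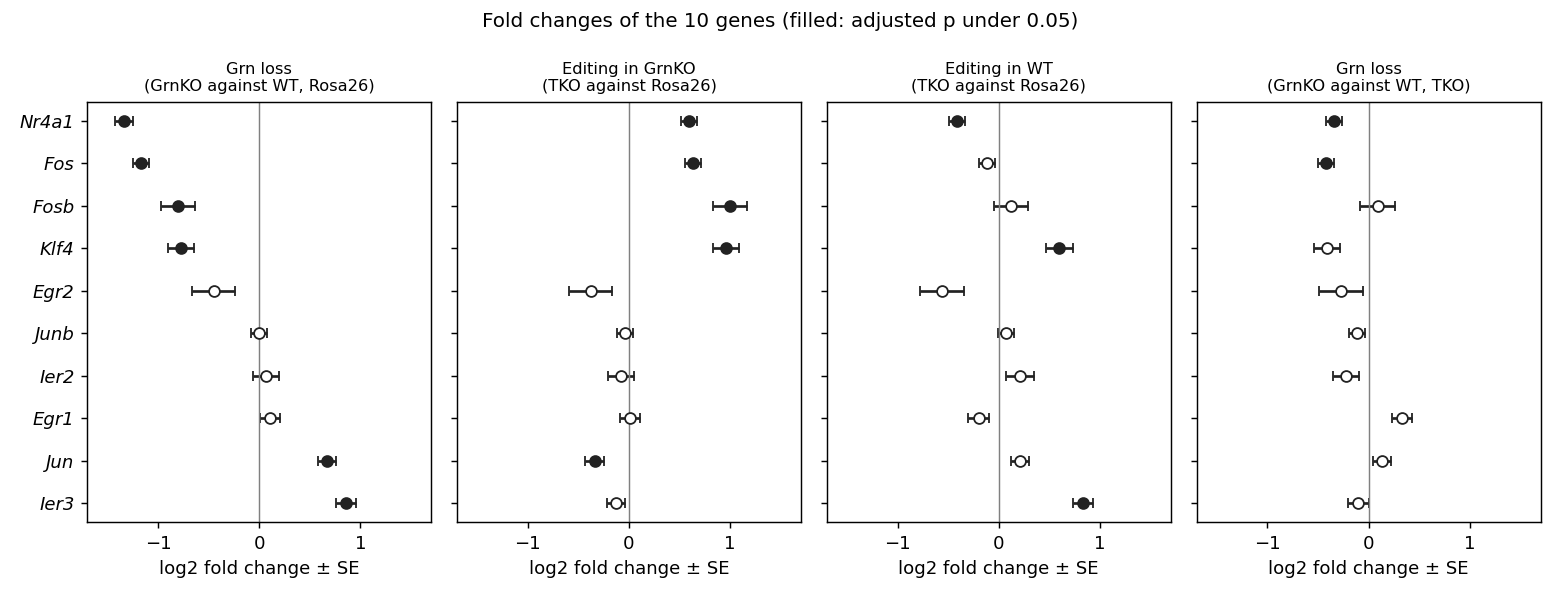
Log2 fold change of each immediate early gene (horizontal axes) ± SE in 4 comparisons, with filled points where the adjusted p was under 0.05 and open points elsewhere. The changes with the loss of Grn in Rosa26 cells run from -1.34 for Nr4a1 to 0.86 for Ier3, and those with the edit in GrnKO cells from -0.38 for Egr2 to 1.00 for Fosb.

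Whether the edit acted differently in GrnKO and in WT cells was tested by the interaction, the change in GrnKO minus the change in WT. It was called for 5 of 10 members, 3 higher and 2 lower, where 13.4% of all genes were called, 5.8% higher and 7.63% lower. Nr4a1, with a fall in WT and a rise in GrnKO cells, had 1.00 ± 0.12 (edgeR adjusted p = 5.46e-05), Fos 0.75 ± 0.11 (0.000333) and Fosb 0.89 ± 0.24 (0.0201). Ier3, which rose in WT cells, had -0.96 ± 0.14 (edgeR adjusted p = 0.000333) and Jun -0.54 ± 0.13 (0.0125). In each of these 5 the sign was the same within all 4 batches. Klf4 rose in both genotypes, and its interaction was 0.36 ± 0.18, with a 95% interval from -0.05 to 0.77 (edgeR adjusted p = 0.2). With TKO and Rosa26 libraries paired by genotype and batch it was called, at 0.34 ± 0.10 (edgeR adjusted p = 0.0209). The Fosb interaction was not called without WT Rosa26 replicate 2, WT TKO replicate 4, GrnKO Rosa26 replicate 1 or GrnKO TKO replicate 1 (edgeR adjusted p from 0.0585 to 0.0714). Nor was it called without batch 1 or batch 4 (0.0822 and 0.157). The Jun interaction lost its call without batch 1, 2 or 4 (edgeR adjusted p = 0.0792, 0.0651 and 0.14). In WT cells the edit gave Jun 0.21 ± 0.09 (edgeR adjusted p = 0.272), and 0.34 ± 0.08 without WT Rosa26 replicate 3 (0.0193).

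Among edited cells, the loss of Grn called 2 of 10 members, both lower, where 4.99% of all genes were called, 2.53% higher and 2.45% lower. Fos was -0.42 ± 0.08 (edgeR adjusted p = 0.00306) and Nr4a1 -0.34 ± 0.08 (edgeR adjusted p = 0.0233), lower in 4 of 4 batches each, although the groups of no member were without overlap, against 8.42% of all genes. Klf4 missed the threshold at -0.41 ± 0.13 and Egr1 at 0.33 ± 0.10 (edgeR adjusted p = 0.0787 and 0.0668). The Nr4a1 call was lost without WT TKO replicate 2, WT TKO replicate 3, GrnKO TKO replicate 2 or GrnKO TKO replicate 4 (edgeR adjusted p from 0.0608 to 0.128). With the Ddx3y level as a term Egr1 (0.38 ± 0.09) and Klf4 (-0.48 ± 0.11) were called beside them (edgeR adjusted p = 0.016 and 0.0138).

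Edited GrnKO cells were then set against control WT cells, a comparison that shares its libraries with those above and is given beside them for that reason. It called 5 of 10 members, 2 higher and 3 lower, where 12.7% of all genes were called (6.43% higher and 6.25% lower), and 3 of 10 had groups without overlap, against 9.55%. Nr4a1 (-0.75 ± 0.08, edgeR adjusted p = 2.1e-05) and Fos (-0.54 ± 0.08, edgeR adjusted p = 0.000178) were lower in the edited GrnKO cells, and Ier3 (0.73 ± 0.10, edgeR adjusted p = 0.000125) and Jun (0.33 ± 0.09, edgeR adjusted p = 0.0264) higher. Fosb and Klf4 were not called, with 0.21 (95% interval -0.18 to 0.59) and 0.19 (-0.11 to 0.48). The Jun call was lost without WT Rosa26 replicate 1, 2 or 4 or GrnKO TKO replicate 1 or 2 (edgeR adjusted p from 0.0581 to 0.113).

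Ratios within a library do not depend on its depth or scaling. Fos tags per Jun tag were 1.30 ± 0.344 (SD, n = 4) for WT Rosa26, 1.02 ± 0.231 for WT TKO, 0.357 ± 0.0705 for GrnKO Rosa26 and 0.696 ± 0.111 for GrnKO TKO. Every GrnKO Rosa26 library, at 0.307 to 0.459, was below every other library. Nr4a1 tags per Ier3 tag were 2.56 ± 0.795 (SD, n = 4), 1.04 ± 0.202, 0.542 ± 0.136 and 0.886 ± 0.192 in the same order, and here every WT Rosa26 library, at 1.76 to 3.65, was above every other. Both pairs were formed after the genes' values were seen, so the ratios are given without a test.

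**Figure D3:**
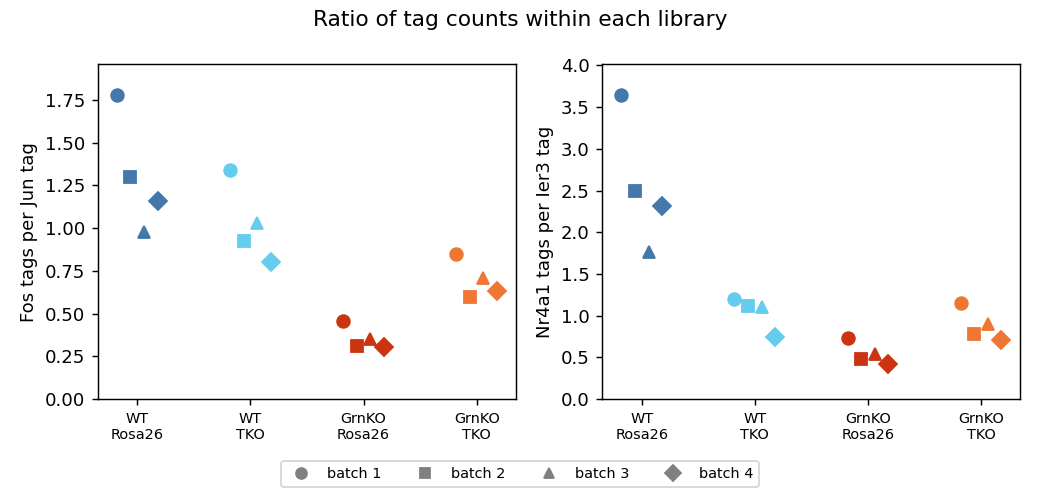
Fos tags per Jun tag and Nr4a1 tags per Ier3 tag in each library (vertical axes, from 0), by group, with a symbol per batch. The GrnKO Rosa26 libraries lie at 0.307 to 0.459 in the first ratio, and the WT Rosa26 libraries at 1.76 to 3.65 in the second.

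Batch was called for 3 of 10 members, Fos, Nr4a1 and Egr1, where 5.03% of all genes were called. The mean log2 deviation of Fos from its group means was 0.30 in batch 1 and -0.25 in batch 4 (edgeR adjusted p = 0.00507), and that of Nr4a1 0.27 and -0.34 (edgeR adjusted p = 0.00526). All 4 libraries of batch 1 were above and all 4 of batch 4 below for both genes. Egr1 deviated by 0.31 in batch 3 (edgeR adjusted p = 0.0269). Junb had a span of 0.03 between its batch means, the median span of all genes being 0.24. The labelled batches hold 1 library of each group, so a shift common to the 4 libraries of a batch falls on all groups compared. A shift of only 1 genotype within a batch would not be removed by the batch term. Over all genes, deviations correlated at 0.402 on average within a batch and genotype and at 0.1 with the other genotype of the batch.

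**Figure D4:**
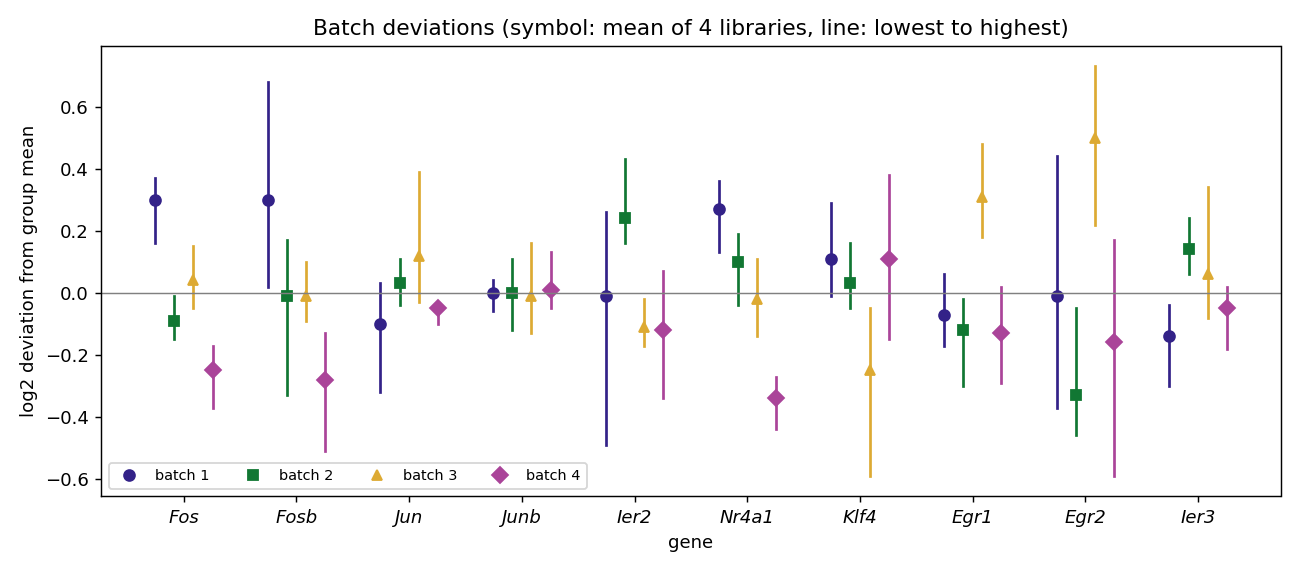
Log2 deviation of each immediate early gene from its group means (vertical axis), by batch, with the mean of the 4 libraries of a batch as a symbol and the lowest to the highest as a line. Fos and Nr4a1 are above 0 in batch 1 and below 0 in batch 4 in all 4 libraries, and Egr1 is above 0 in batch 3.

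Other genes of the early response were counted by list, to be read beside all genes tested, of which 23.1% rose and 21.5% fell with the loss of Grn in Rosa26 cells, 14.8% rose and 17.8% fell with the edit in GrnKO cells, and 2.18% rose and 1.16% fell with the edit in WT cells. The loss of Grn in Rosa26 cells and the edit in GrnKO cells share the GrnKO Rosa26 libraries, so opposite changes in them are not independent. Of 22 other early transcription factors tested, 3 rose and 7 fell with the loss of Grn in Rosa26 cells, and 9 rose and 1 fell with the edit in GrnKO cells, with medians of -0.07 and 0.26 beside 0 over all genes. For the loss of Grn the 10 of 22 called lie near the 44.6% of all genes. Id1, an inhibitor of basic helix-loop-helix factors, fell with the loss and rose with the edit in GrnKO cells, with log2 changes of -1.57 ± 0.11 and 1.27 ± 0.11 (edgeR adjusted p = 9.21e-09 and 3.29e-07). The Nr4a1 relatives Nr4a2 and Nr4a3 fell as well (-0.84 ± 0.12 and -1.11 ± 0.21, edgeR adjusted p = 2.59e-05 and 0.000287) and rose with the edit in GrnKO cells (0.68 ± 0.12 and 1.43 ± 0.20, edgeR adjusted p = 0.00044 and 3e-05). Bhlhe40, a repressor of the helix-loop-helix class, went the other way, with 0.93 ± 0.09 and -0.79 ± 0.09 (edgeR adjusted p = 3.98e-07 and 5.14e-06). In WT cells the edit raised 4 of the 22, among them Klf9 (0.72 ± 0.09), Hes1 (2.04 ± 0.26) and Nr4a3 (0.83 ± 0.19, edgeR adjusted p = 9.02e-05, 0.000121 and 0.0209).

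Of 11 other AP-1 and bZIP genes, 3 rose and 2 fell with the loss of Grn in Rosa26 cells, and the same counts held with the edit in GrnKO cells. Batf, a partner of JUN proteins, rose with the loss (1.63 ± 0.25) and fell with the edit (-0.99 ± 0.22), while Maff, a small MAF protein, did the reverse (-1.56 ± 0.37 and 1.64 ± 0.35, edgeR adjusted p from 3.72e-05 to 0.00364 for the 4 values). Jund, the third JUN gene, rose with the loss (0.45 ± 0.09, edgeR adjusted p = 0.000533) and had -0.08 ± 0.09 with the edit.

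Feedback inhibitors of the MAP kinases, which immediate early signals induce and which end those signals, were 1 higher and 5 lower of 11 with the loss of Grn in Rosa26 cells, and 4 higher and 1 lower with the edit in GrnKO cells, with medians of -0.22 and 0.18. Dusp1, a MAP kinase phosphatase, had levels of 188 ± 31.6 CPM (SD, n = 4) for WT Rosa26, 190 ± 42.9 for WT TKO, 93.1 ± 13 for GrnKO Rosa26 and 152 ± 25.7 for GrnKO TKO. It fell with the loss (-1 ± 0.09) and rose with the edit in GrnKO cells (0.69 ± 0.09, edgeR adjusted p = 6.88e-08 and 1.24e-05). Errfi1, an inhibitor of EGF receptor family kinases, changed likewise (-1.39 ± 0.14 and 0.72 ± 0.14, edgeR adjusted p = 3.76e-07 and 0.000685). Dusp2, a phosphatase of the same family as Dusp1, rose with the loss (1.14 ± 0.21) and fell with the edit (-1.06 ± 0.20, edgeR adjusted p = 0.000293 and 0.000656).

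Upstream, of 27 genes from the M-CSF receptor to the MAP kinases and ternary complex factors, 7 rose and 8 fell with the loss of Grn in Rosa26 cells, with a median of 0.01, where 44.6% of all genes were called. Elk1, a ternary complex factor, rose (0.84 ± 0.11) and Mapk14, which encodes the kinase p38 alpha, fell (-0.57 ± 0.08, edgeR adjusted p = 5.56e-06 and 1.74e-05). Of 11 cytoskeletal targets of SRF, 2 rose and 6 fell, with a median of -0.41, and 4 rose and 1 fell with the edit in GrnKO cells, with a median of 0.26. In these 2 comparisons the actin genes Actb (-0.42 ± 0.06 and 0.36 ± 0.06) and Actg1 (-0.76 ± 0.09 and 0.40 ± 0.09) were among the genes called. Tagln2, which encodes an actin-binding protein, had 0.54 ± 0.07 and -0.53 ± 0.07 (edgeR adjusted p from 2.33e-06 to 0.00226 for the 6 values).

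Early response genes that encode no transcription factor were split, with 8 higher and 5 lower of 22 with the loss of Grn in Rosa26 cells and 7 higher and 5 lower with the edit in GrnKO cells. Gadd45a, a stress gene that slows the cell cycle, had a mean of 5.26 ± 0.849 CPM (SD, n = 4) for WT Rosa26 and 30.2 ± 3.93 CPM for GrnKO Rosa26, a log2 change of 2.49 ± 0.15 (edgeR adjusted p = 5.48e-10). Ptgs2, which encodes cyclooxygenase-2, fell with the loss (-1.16 ± 0.16) and rose with the edit in GrnKO cells (1.13 ± 0.16) and in WT cells (0.86 ± 0.15, edgeR adjusted p = 1.52e-05, 3.91e-05 and 0.00348). Of 11 heat shock genes, which rise with heat and with damaged protein, 3 rose and 3 fell in both the loss of Grn in Rosa26 cells and the edit in GrnKO cells. Of 11 NF-kB feedback genes, 3 rose and 4 fell with the loss and 3 rose and 1 fell with the edit in GrnKO cells. Among them Nfkbiz, which encodes a nuclear protein of the IkB family, had -1.55 ± 0.18 and 1.35 ± 0.18 (edgeR adjusted p = 3.47e-06 and 3.48e-05).

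**Figure D5:**
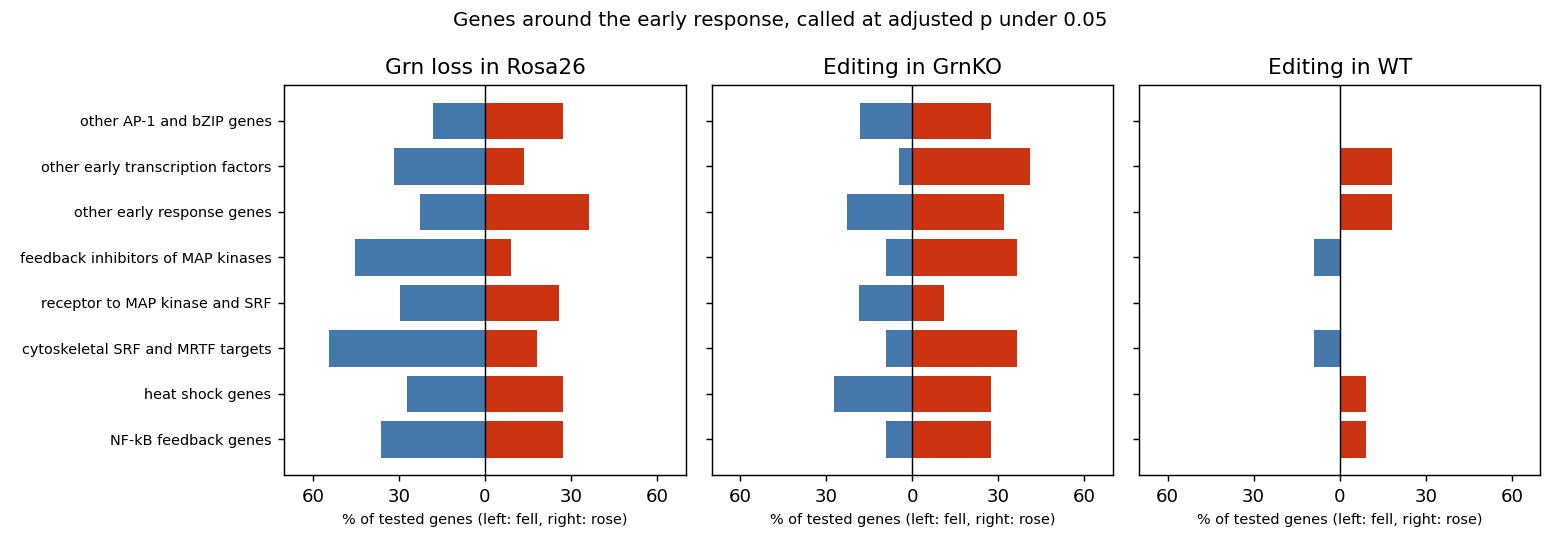
Share of the tested genes of 8 lists that fell (bars to the left, in %) or rose (bars to the right, in %) at an adjusted p under 0.05 in 3 comparisons. Of the 11 feedback inhibitors of MAP kinases 5 fell and 1 rose with the loss of Grn in Rosa26 cells, and 1 fell and 4 rose with the edit in GrnKO cells.

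The genes whose levels were most alike across the 16 libraries, among 9705 with a mean of 5 CPM or more, are given as a description, since the libraries share groups and batches. For Fos they were Gm28037 (r = 0.967), Rpl15 (0.962) and Rpl29 (0.958), for Jun Pusl1 (0.96) and for Klf4 Clec4e (0.959). Rpl15 and Rpl29 encode ribosomal proteins, and the summed share of 86 ribosomal protein genes was 7.82% to 8.97% of the counts for WT Rosa26, 8% to 8.85% for WT TKO, 5.89% to 6.56% for GrnKO Rosa26 and 6.85% to 7.77% for GrnKO TKO. The part of that share in the results was not tested. Ier3 was most like Amz1 (0.917), Fosb Slc39a14 (0.915), Ier2 Trappc5 (0.933), Junb Katna1 (0.88), Egr1 Igf2bp2 (0.872) and Egr2 Rgs1 (0.844). No member was among the 3 genes most like another member.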

How the data were processed

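Expression was measured by 3′ tag sequencing in 16 libraries, with molecular identifiers added per the labels' protocols. The submitters' processing notes name, with no roles, R 4.5.1, edgeR 4.6.2, Salmon 1.10.1, STAR 2.7.9a and the build GRCm39. The annotation, the filters and the use of the identifiers are not given in the sources used here. One deposited table held gene-level estimated counts. The authors' second table held a normalised signal, and it was checked to equal the counts scaled by library size and by the authors' deposited scaling ratio (median gap 1.11%). All deposited values were rounded to 2 significant digits, so gaps smaller than that step cannot be read.

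After rounding of the estimated counts to whole numbers, edgeR 4.0.16 (R 4.3.3) was run with filterByExpr, TMM scaling and a term per group and per batch over all 16 libraries (9 residual degrees of freedom). P-values were adjusted by the Benjamini-Hochberg method over 15385 genes, and the threshold was 0.05. Intervals of a change are 95% intervals from its SE. Levels are CPM computed here. The steps were tested on simulated data with known changes.

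Members and lists were chosen with earlier results of these data known. The lists had 8 themes, and up to 3 called genes of smallest p were named per list and comparison; of these, a selection is printed. Likeness used Pearson's r of log2(CPM + 1), 3 genes per member, and the genes most like Nr4a1 are not reported here.

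Batch was a term because the labels give it. Deviations from group means correlated at 0.402 on average between libraries of the same batch and genotype (0.291 to 0.534, 8 pairs), at 0.1 for the same batch and the other genotype (16 pairs) and at -0.0665 for other batches and groups (72 pairs). The series design gives 16 animals, but these correlations, and Xist and Ddx3y levels that were alike within each such pair, leave unclear whether the Rosa26 and TKO libraries of 1 genotype and batch share an animal. P-values measure the spread between these libraries.

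The alternatives were scaling by RLE, every gene kept whatever its count, a filter at a mean of 5 CPM, limma-trend (limma 3.58.1) on log2 of the authors' signal with a pseudocount of 1 or 0.25, no batch term, pairing by genotype and batch, Ddx3y as a covariate, only the groups compared, and leaving out each library or batch, and DESeq2 1.42.0 as another tool. The 10 libraries with Ddx3y under 2 CPM were an alternative chosen after seeing the data.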

Additional observations from a re-analysis of the deposited data

Results flagged for a closer look

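The effect of the edit differed between GrnKO and WT cells by the interaction test for 5 members. The change in GrnKO minus the change in WT was 0.75 ± 0.11 for Fos (edgeR adjusted p = 0.000333), 0.89 ± 0.24 for Fosb (0.0201), -0.54 ± 0.13 for Jun (0.0125), -0.96 ± 0.14 for Ier3 (0.000333) and 1.00 ± 0.12 for Nr4a1 (5.46e-05).

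A single library stood far from the other 3 of its group in 5 of 40 groups by Dixon's criterion, which chance alone gives in about 1 in 20 groups for unrounded values. The counts were deposited to 2 significant digits, and in these 5 groups the other 3 libraries lay about as close as that step or closer. Neither the criterion nor its chance rate can therefore be relied on here, and the values are given as a description. Jun was at 177 CPM in WT TKO replicate 3, beside 159 to 162 CPM in the others, and at 243 CPM in GrnKO Rosa26 replicate 2, beside 218 to 221 CPM. Ier3 was at 59.4 CPM in GrnKO TKO replicate 2, beside 52.6 to 53 CPM. Nr4a1 was at 44 CPM in WT TKO replicate 4, beside 64.9 to 68.4 CPM. Klf4 was at 78.6 CPM in GrnKO Rosa26 replicate 1, beside 69.9 to 70.8 CPM.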

How the results depend on the processing

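Of 26 called member values, 12 lost the call under at least 1 of 31 settings, and no called value changed sign, while 56 of 1820 recomputed values changed sign where neither fit called them. Among the 12 is Fosb with the loss of Grn in Rosa26 cells, called in 29 of 30 settings. The setting without a call was the 10 libraries of little Y-linked signal, which cannot show stability, as said below. The calls kept under every setting run were Fos, Jun, Ier3, Nr4a1 and Klf4 with the loss of Grn in Rosa26 cells, Fos, Fosb, Nr4a1 and Klf4 with the edit in GrnKO cells, Ier3 with the edit in WT cells, and Ier3 and Nr4a1 in the interaction and in edited GrnKO against control WT cells. With no replicate block, that is, without the batch term, members called were 1 for the edit in WT, 0 for the loss of Grn in TKO cells by edgeR (2 at an unadjusted p under 0.05, and 4 by DESeq2 with the block), 3 for the interaction and 2 for edited GrnKO against control WT, beside 3, 2, 5 and 5 with it; over all genes the counts were 216, 345, 910 and 732 beside 515, 767, 2067 and 1950. Under that setting Nr4a1 and Klf4 lost the call for the edit in WT (edgeR adjusted p = 0.32 and 0.0745), Fos and Nr4a1 for Grn loss among TKO cells (0.172 and 0.362), Fos and Fosb in the interaction (0.0515 and 0.0961) and Fos, Jun and Egr2 in edited GrnKO against control WT (0.0539, 0.0921 and 0.152). Members called with the loss of Grn in TKO cells were 4 without a filter, with Ddx3y as a covariate or by DESeq2, where Egr1 and Klf4 joined. They were 1 with only the 2 groups, without batch 2 or without batch 4. In the 10 libraries of little Y-linked signal, the log2 change with the loss of Grn in TKO cells was -1.19 for Egr2, -0.36 for Fos and -0.13 for Nr4a1. In Rosa26 cells of those libraries it was -0.70 for Fosb, -1.02 for Egr2 and 0.60 for Ier2. Batch 1 alone holds both genotypes there, 1 library per group, so these values say nothing about Y-linked signal or stability. For the edit in WT the count was 1 without batch 1 or batch 2, for the interaction 3 without batch 1 or batch 4, for edited GrnKO against control WT 3 with only the 2 groups or without batch 2, and for batch 6 without a filter. Leaving out 1 library gave 1 to 4 members for the edit in WT, 4 to 5 for the edit in GrnKO, 6 to 7 for the loss of Grn in Rosa26 cells, 1 to 4 in TKO cells, 4 to 6 for the interaction, 3 to 5 for edited GrnKO against control WT and 2 to 4 for batch. The libraries that moved a count by over 1.5 times were WT TKO replicate 4 for the edit in WT (1), WT TKO replicates 2 and 3 and GrnKO TKO replicate 4 (1) and WT Rosa26 replicate 3 (4) for Grn loss among TKO cells, and WT Rosa26 replicates 1 and 2 and GrnKO TKO replicates 1 and 2 for edited GrnKO against control WT (3). Calls over all genes also moved under settings other than leaving out 1 library or keeping only the 10 libraries of little Y-linked signal. They ran from 130 to 1171 for the edit in WT, 2637 to 7152 for the edit in GrnKO and 120 to 1208 for the loss of Grn in TKO cells. For the interaction they ran from 283 to 3607 and for edited GrnKO against control WT from 419 to 2579. Without GrnKO Rosa26 replicate 2 batch called 148 genes beside 774. With a pseudocount of 0.25 the median change of all genes was 0.12 with the loss of Grn in Rosa26 cells and -0.11 in the interaction. The cause of these differences was not tested. WT Rosa26 replicate 1 is the shallowest library, and Fosb, Ier2 and Egr2 rest on its lowest counts, 49, 69 and 110.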
